A study of Mus musculus with 11 samples.

Results

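The Slit ligands and Robo receptors are 6 of the 21900 protein-coding genes of the reference annotation, namely the ligand genes Slit1, Slit2 and Slit3 and the receptor genes Robo1, Robo2 and Robo3. They were taken by name, with earlier results of these data known. All 6 had rows in the RNA table and a position in the annotation. The study profiled 2 histone marks in 3 mouse cell populations and RNA in 2 tissues of the early kidney, in 11 samples with 1 sample per group. No replicate spread exists, so the values below carry no test and no SD.

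Cap mesenchyme, the population that holds the nephron progenitors, was RFP-positive cells of E18.5 embryos with the Cited1nuc-TagRFP-T reporter, on a strain of (C57BL/6 x DBA)F1 origin kept on C57BL/6J (N5). Ureteric epithelium, the branching tube that forms the collecting ducts, was cells of E15.5 embryos of genotype Hoxb7myr- Venus/+, of (C57BL/6J x CBA/J)F2 origin kept on C57BL/6J. The reporters are named for Cited1 and Hoxb7, so each population is limited to the cells in which its reporter was seen. The third population was the wild-type embryonic stem cell line E14, of strain 129/Ola, at passage 15. RNA came from metanephric mesenchyme and from ureteric epithelium (the ureteric bud at that age) separated by hand, in wild-type embryos of strain C57BL/6 at age E11.5. The RNA and the marks therefore come from different ages, strains and ways of isolating cells, and RNA of the stem cells was not analysed here.

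Slits are large secreted glycoproteins that bind the immunoglobulin domains of Robo receptors, with heparan sulfate as a co-receptor, and Robo signals to the actin cytoskeleton through srGAP proteins, Nck, Pak and Ena/VASP proteins. The family is best known for repelling axons at the midline. In the kidney, Slit2 acting through Robo2 is known to limit where Gdnf is made, so that a single ureteric bud grows out, and loss of either gene gives extra buds. H3K4me3 marks promoters open to transcription, H3K27me3 is left by Polycomb repressive complex 2, and a promoter with both is often called bivalent.

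The starts that carry the results below are shown first, as windows of 300 bases, with 250 before the start and 50 from the start on, 5′ to 3′ on the gene's strand and with CG dinucleotides in capitals. They are from RefSeq on GRCm38.p6, the assembly called mm10 in the submitters' notes. Slit2 and Slit3 are shown because their RNA was the most unequal between the tissues, Robo1 because its inner start had H3K4me3 alone in all 3 populations, and the pair from Robo2 because these starts differ in their marks.

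Slit2, chr5:47982905-47983204, plus strand: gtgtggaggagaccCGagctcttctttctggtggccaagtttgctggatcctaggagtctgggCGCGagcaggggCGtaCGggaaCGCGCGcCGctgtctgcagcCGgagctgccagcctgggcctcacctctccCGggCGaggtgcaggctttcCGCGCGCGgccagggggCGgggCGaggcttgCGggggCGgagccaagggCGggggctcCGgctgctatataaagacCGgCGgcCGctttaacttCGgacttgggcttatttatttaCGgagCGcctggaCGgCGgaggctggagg
Slit3, chr11:35121206-35121505, plus strand: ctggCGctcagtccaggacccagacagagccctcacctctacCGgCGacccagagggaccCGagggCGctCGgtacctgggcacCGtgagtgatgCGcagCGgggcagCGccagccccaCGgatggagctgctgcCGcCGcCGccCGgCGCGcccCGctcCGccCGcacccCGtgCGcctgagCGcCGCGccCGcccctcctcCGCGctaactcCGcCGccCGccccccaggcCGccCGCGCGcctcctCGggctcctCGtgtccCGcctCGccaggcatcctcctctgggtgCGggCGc
Robo1 inner start, chr16:72662899-72663198, plus strand: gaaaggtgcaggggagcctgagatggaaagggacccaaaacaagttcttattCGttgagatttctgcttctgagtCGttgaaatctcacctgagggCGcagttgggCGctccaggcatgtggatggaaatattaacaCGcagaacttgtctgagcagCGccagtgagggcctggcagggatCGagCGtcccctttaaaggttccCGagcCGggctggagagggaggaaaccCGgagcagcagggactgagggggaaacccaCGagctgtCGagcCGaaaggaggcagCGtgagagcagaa
Robo2 innermost start, chr16:74411776-74412075, minus strand: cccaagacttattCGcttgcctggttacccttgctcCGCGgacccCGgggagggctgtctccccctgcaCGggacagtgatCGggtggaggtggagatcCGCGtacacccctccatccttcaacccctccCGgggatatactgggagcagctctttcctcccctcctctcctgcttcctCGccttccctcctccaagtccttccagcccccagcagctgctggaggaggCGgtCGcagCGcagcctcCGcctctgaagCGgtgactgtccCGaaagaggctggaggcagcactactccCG
Robo2 middle start, chr16:75092721-75093020, minus strand: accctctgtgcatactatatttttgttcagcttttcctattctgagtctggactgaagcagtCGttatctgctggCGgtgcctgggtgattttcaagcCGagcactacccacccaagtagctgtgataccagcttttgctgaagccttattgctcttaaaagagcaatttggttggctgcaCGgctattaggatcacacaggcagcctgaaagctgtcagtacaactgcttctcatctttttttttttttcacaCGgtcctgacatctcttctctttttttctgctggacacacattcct

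These windows differ in CG content. The table of promoters had 7 windows for 5 of the 6 genes, and none for Slit1. The Slit3 window held 41 CG dinucleotides and that of Slit2 held 30, against a median of 7 over all 32851 windows. Only 3.03% of all windows held more than the Slit3 window and 10.6% more than the Slit2 window. The innermost Robo2 start and the Robo3 start had 17 each, the inner Robo1 start had 15, the outer Robo2 start in the table had 9, and the middle Robo2 start had 5. Other short motifs were looked for on both strands as well. GGGCGG, a GC box, was found 3 times in the Slit2 window, 6 times in that of Slit3 (on the opposite strand) and 3 times in that of Robo3, and 35.7% of all windows held it. TATAAA was found once, in the Slit2 window, 28 bases before the start, and 13.6% of all windows held it. CCAAT was in no window of these genes and in 37.4% of all windows. CANNTG, an E-box, reads the same class of letters on both strands and was counted once per position. The Robo1 window had 3 matches, each of the 3 Robo2 windows had 1 and the Robo3 window had 2, and 72.3% of all windows held it. A match is a description of letters, not a bound site.

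Each of Slit2 and Slit3 also hosts a copy of the microRNA miR-218 on its own strand. The Mir218-1 hairpin lies at chr5:48223942-48224051, 243 kb from the outermost Slit2 start, and the Mir218-2 hairpin at chr11:35616816-35616925, 495 kb from the Slit3 start. Their 5p arms are the same sequence and so share a seed (bases 2 to 8, in capitals), while the 3p arms differ.

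miR-218-5p, from both hairpins: uUGUGCUUgaucuaaccaugu
miR-218-1-3p, in Slit2: aAACAUGGuuccgucaagcacc
miR-218-2-3p, in Slit3: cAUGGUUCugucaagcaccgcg

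The RNA table had a row for each hairpin. The row of 110 bases for Mir218-1 was at 17.0 FPKM (fragments per length of transcript and per total of mapped fragments) in mesenchyme and 88.9 FPKM in ureteric bud, with deposited intervals of 0 to 93.5 and 0 to 410 (409.52) that overlap. Mir218-2 was listed at 0 in both. A hairpin row in a library of total RNA may hold fragments of the host's primary transcript, and mature microRNA was not measured. An H3K4me3 peak of 734 bp in stem cells covered the Mir218-2 hairpin, and no peak of either kidney population touched either hairpin.

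The ligands were split between the tissues. Slit2 was higher in ureteric bud, Slit3 in mesenchyme, and Slit1 was low in both. In ureteric bud, Slit2 made up 93.8% of the summed FPKM of the 3 ligands (41.9). In mesenchyme, where the sum was 17.7, Slit3 made up 57.8%, Slit2 31.3% and Slit1 10.9%. Slit1 and Slit3 were 4.46% and 1.71% of the sum in ureteric bud. Robo1 and Robo2 held nearly all of the receptor RNA. The receptor sum was 88.5 FPKM in mesenchyme, of which Robo2 was 83.4% and Robo1 16.5%, and 42.3 FPKM in ureteric bud, of which Robo2 was 55.5% and Robo1 44.5%. These shares rest on how Robo2 transcripts were paired: by accession alone Robo2 was 35.8% in mesenchyme and 8.02% in bud, and Robo1 was 64.0% and 92.0%. FPKM is a level per length, so genes can be set beside each other on this scale. In bulk tissue, fewer cells of a type and less RNA per cell cannot be told apart.

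**Figure D1:**
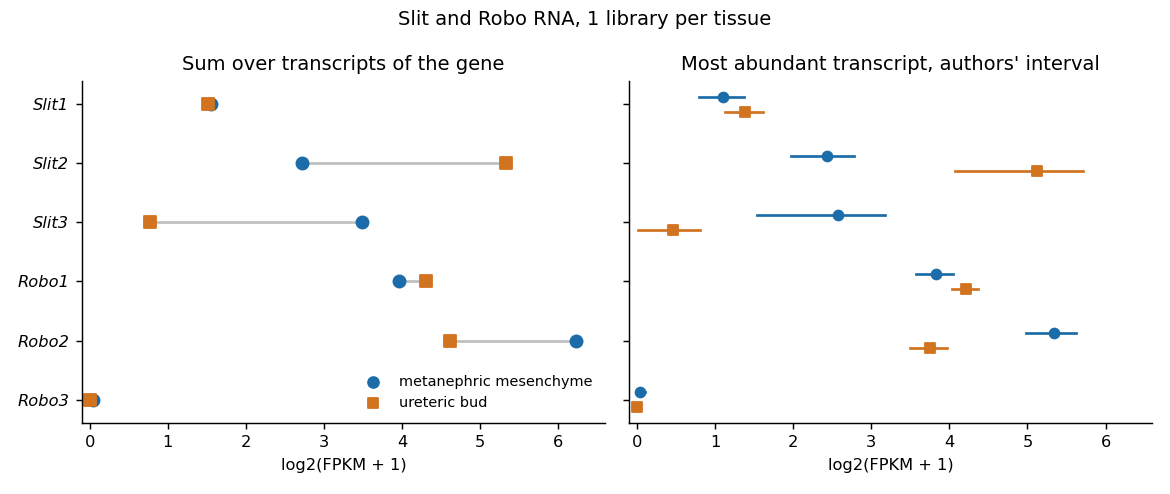
RNA of the 6 genes in metanephric mesenchyme (blue circles) and ureteric bud (orange squares), 1 library each, on the log2(FPKM + 1) scale: the sum over transcripts (left) and the transcript with the highest level, with the interval the authors deposited (right). Slit2 lies at 5.55 and 39.3 FPKM and Slit3 at 10.2 and 0.715 FPKM in the left panel, in opposite orders, while the symbols of Slit1 nearly coincide.

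Slit2, the ligand known to restrict Gdnf, was at 5.55 FPKM in mesenchyme and 39.3 FPKM in ureteric bud, 7.08 times as high in the bud. On the log2(FPKM + 1) scale the difference, mesenchyme minus bud, was -2.62. A gene was counted as different here when that difference reached 2 (4-fold) in size and its higher level was at least 2 FPKM. Of the 11238 protein-coding genes at 1 FPKM or more in either tissue, 4.15% passed this in the direction of ureteric bud and 1.84% in the direction of mesenchyme, and 2.28% had a lower difference than Slit2. All of the Slit2 RNA was given to a single group of transcripts with a common start. A transcript of 9033 bp held 79.3% of it in mesenchyme and 85.7% in bud, at 4.40 FPKM (authors' deposited interval 2.92 to 5.88) and 33.7 FPKM (15.8 to 51.6). These intervals do not overlap, but they describe the assignment of fragments in 1 library and not the spread between animals. With curated transcripts alone the Slit2 difference was -0.92, short of 4-fold, since the 9033 bp transcript is a predicted model. After the libraries were rescaled to equal medians, Slit2 was at 26.7 FPKM in bud and its difference was -2.08, just past 4-fold.

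Slit3 showed the opposite order, with 10.2 FPKM in mesenchyme and 0.715 FPKM in ureteric bud, 14.3 times as high in mesenchyme and a log2 difference of 2.71. Only 1.02% of the tested genes had a higher difference. All 3 of its transcripts were higher in mesenchyme with intervals that did not overlap. A transcript of 2271 bp, a splice form that only partly matches the reference, was at 4.96 FPKM (1.89 to 8.03) and 0.382 FPKM (0.0102 to 0.753). The reference form of 7280 bp was at 4.23 FPKM (3.27 to 5.18) and 0.110 FPKM (0 to 0.221). A form of 4996 bp was at 1.05 FPKM (0.423 to 1.69) and 0.224 FPKM (0.0358 to 0.411). Thus the shorter form was listed at a similar level to the full-length form in mesenchyme.

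Slit1, a ligand best known from the nervous system, was at 1.93 FPKM in mesenchyme and 1.87 FPKM in bud, a log2 difference of 0.03. Beneath this equal sum, its transcripts differed. The curated form of 5238 bp was at 1.16 FPKM (0.731 to 1.58) in mesenchyme and 1.62 FPKM (1.18 to 2.06) in bud, with overlapping intervals. A predicted form of 7549 bp, from another start group, was at 0.770 FPKM (0.482 to 1.06) in mesenchyme and 0.252 FPKM (0.0732 to 0.431) in bud, with intervals that do not overlap. The predicted form was 39.97% of the gene in mesenchyme and 13.5% in bud. Without it the difference was -0.28, so the direction for Slit1 depends on which transcripts are summed.

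Among the receptors, Robo2 was at 73.9 FPKM in mesenchyme, the highest of the 6 genes there, and at 23.5 FPKM in ureteric bud, where Slit2 was higher. It was 3.14 times as high in mesenchyme, with a log2 difference of 1.61, below the 4-fold limit, and 2.65% of the tested genes had a higher difference. The median difference of the 9566 genes at 1 FPKM or more in both libraries was -0.46, so values lean to the bud as deposited. Relative to that median the Robo2 difference was 2.07, and after the libraries were rescaled to equal medians it was 2.14, past 4-fold. Most Robo2 RNA was on predicted transcripts that the present annotation no longer lists. They were paired with Robo2 by the gene identifier of the authors' deposited table, and by accession alone Robo2 was at 8.18 and 1.64 FPKM, below Robo1 in both tissues and below Slit3 in mesenchyme. A transcript of 6186 bp was at 39.4 FPKM (30.5 to 48.3) and 12.5 FPKM (10.2 to 14.7), and a transcript of 6292 bp at 16.3 FPKM (10.6 to 22.04) and 4.61 FPKM (3.20 to 6.03). Neither pair of intervals overlaps. The form of 9328 bp, at 6.48 FPKM (3.52 to 9.44) and 1.45 FPKM (0.803 to 2.09), did not overlap either, whereas that of 5598 bp, at 9.97 FPKM (3.34 to 16.6) and 4.78 FPKM (3.25 to 6.32), did. The balance of start groups was alike in both tissues. The group of the 6186 bp form held 62.1% of Robo2 RNA in mesenchyme and 59.2% in bud, and that of the 6292 bp form held 35.6% and 39.96%. The table gives no position for a start group, so these were not matched to the starts described below.

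Robo1, which also binds Slits, was at 14.6 FPKM in mesenchyme and 18.8 FPKM in ureteric bud, a log2 difference of -0.34 as deposited that turned to 0.18 after rescaling. The difference is thus of the size of the shift between the libraries. A transcript of 7568 bp was 90.4% of Robo1 in mesenchyme and 92.9% in bud, at 13.2 FPKM (10.9 to 15.499) and 17.5 FPKM (15.4 to 19.6), with overlapping intervals. Robo2 was above Robo1 in both tissues only with the predicted transcripts paired by gene identifier, and by accession alone or with curated transcripts alone (Robo2 at 0 in both) the order turned. Robo3, a divergent receptor needed for commissural axons to cross the midline, was at 0.0316 FPKM in mesenchyme and was listed at 0 in bud. Of its 10 transcripts 1 was above 0, and Robo3 was left out of the tested genes. The depth behind these values is unknown, so a value near 0 says only that little was counted.

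By level in mesenchyme the order was Robo2, Robo1, Slit3, Slit2, Slit1 and Robo3. In ureteric bud it was Slit2, Robo2, Robo1, Slit1, Slit3 and Robo3. The neighbours Robo2 and Robo1 in bud, at 23.5 and 18.8 FPKM, and Slit1 and Slit3 in bud, at 1.87 and 0.715 FPKM, cannot be ranked beyond an unmeasured spread. With transcripts paired by accession alone, Robo2 falls to the third place in mesenchyme, after Robo1 and Slit3, and to the level of Slit1 in bud (1.64 and 1.62 FPKM).

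Other transcripts of the same strand lie inside these genes. Within Robo2, a transcript of 11480 bp that overlaps Mir691 was at 16.1 FPKM (11.98 to 20.2) in mesenchyme and 2.46 FPKM (1.78 to 3.14) in bud, with the same order as Robo2 itself. Within Slit3, a transcript of 15222 bp was at 1.29 FPKM (0.957 to 1.62) and 0.0544 FPKM (0.0150 to 0.0938), again in the order of its host. Another 4 pieces of 292 to 681 bp in Slit3 were at 2.40 to 5.48 FPKM in mesenchyme and at most 0.213 FPKM in bud, and a pair of 380 and 387 bp in Robo1 was at 3.07 and 11.47 FPKM in mesenchyme and 1.22 and 6.10 FPKM in bud. The mesenchyme intervals of all 4 Slit3 pieces began at 0, and those of the Robo1 pair overlapped between the tissues, so these short pieces are less certain. Whether the transcripts of the same strand are separate RNAs or parts of the hosts' primary transcripts was not tested. On the opposite strand, the highest level was 0.142 FPKM in mesenchyme and 0.0928 FPKM in bud. The kit marks strand, per the labels.

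At the starts, Slit2, Slit3, Robo1 and Robo2 had H3K4me3 without H3K27me3 in cap mesenchyme, whereas Robo3 had both marks in every population. With every listed start counted, 5 of the 6 genes had H3K4me3 within 1 kb of a start in each population, and Slit1 had neither mark there. H3K27me3 was within 1 kb of a start of 1 gene in cap mesenchyme (Robo3), 4 in ureteric epithelium (Slit3, Robo1, Robo2 and Robo3) and 5 in stem cells, where Slit2 joined them. Over 21085 protein-coding genes with a strand, H3K4me3 was found by the same rule at 67.1% of genes for cap mesenchyme, 63.2% for ureteric epithelium and 70.4% for stem cells. H3K27me3 was found at 8.50%, 12.1% and 12.9%. Both marks together were within 1 kb of the starts of 5 of the 6 genes in stem cells, beside 12.2% of all genes. With equal list lengths or the upper 50% of the list by score, H3K4me3 there was left at 3 genes (Slit2, Robo1 and Robo2), so that 5 falls to 3. The upper 50% by score also left H3K4me3 at 3 genes and H3K27me3 at 2 in ureteric epithelium.

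The choice of start matters for these long genes. With the outermost annotated start alone, the rule set as the main one, H3K4me3 was found at 3 of the 6 genes in cap mesenchyme and at 4 in each of the other populations, beside 63.9% of all genes for cap mesenchyme, 60.0% for ureteric epithelium and 67.8% for stem cells. H3K27me3 was found at 1, 3 and 3 genes in the same order, beside 7.69%, 11.0% and 11.7%. The genes that changed were Slit2, whose cap mesenchyme peak began 1041 bp inside the outermost start and so just missed the window, and Robo2, whose marked starts lie far inside the gene. The upper 50% of the ureteric H3K27me3 list by score begins at 39.3, and the H3K27me3 peaks at Robo1 and Robo2 in ureteric epithelium, with scores of 34.6 and 30.4, are below that. With a score of at least 50 required, Slit3 and Robo3 were left in that population.

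**Figure D2:**
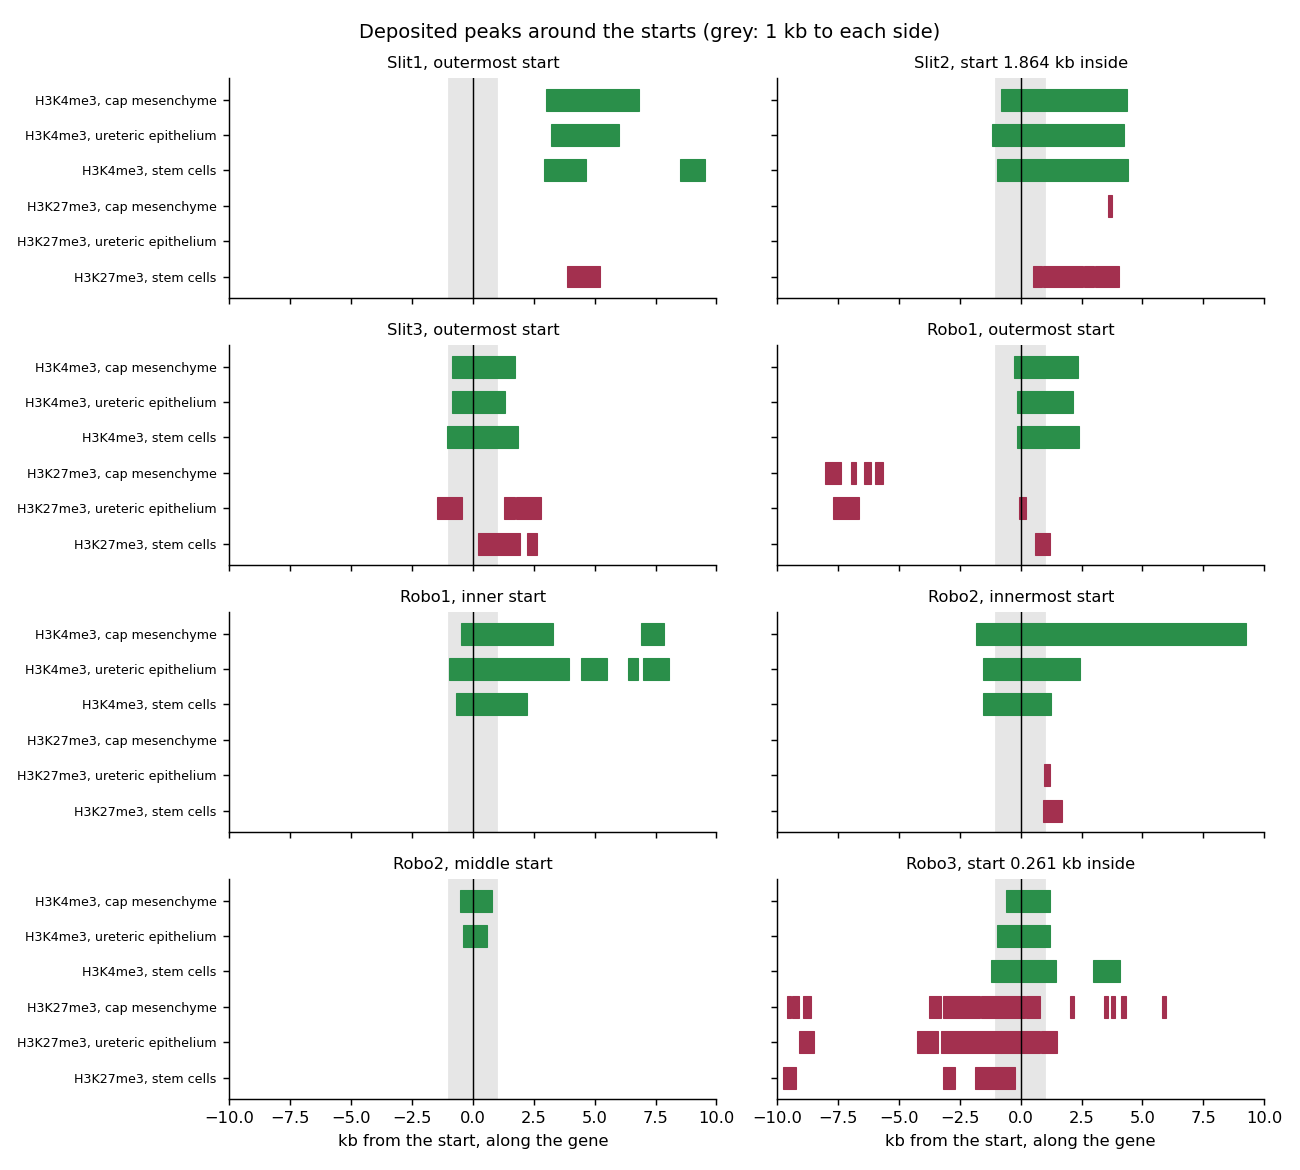
Deposited H3K4me3 (green) and H3K27me3 (red) peaks within 10 kb of 8 starts, along the gene's direction, with the populations as rows and the window of 1 kb to each side in grey. H3K4me3 covers the Slit2 start in all 3 populations, the Slit1 peaks lie about 3 kb inside its outermost start (2.93 to 3.19 kb), and only Robo3 has H3K27me3 over the start in cap mesenchyme.

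Slit2 (chr5:47981291-48307735, plus strand) had a broad H3K4me3 peak over the start at position 47983155 in every population, 5187 bp wide in cap mesenchyme, 5406 bp in ureteric epithelium and, for stem cells, 5392 bp. These widths differ little, and only 1.39%, 1.30% and 4.34% of the peaks of the respective lists were as wide or wider. H3K27me3 peaks of 373 bp (score 53.6) and 1641 bp (score 265) lay 487 and 909 bp after that start in stem cells. No H3K27me3 peak lay within 1 kb of the start in either kidney population. The H3K4me3 score was 3100 in cap mesenchyme, a value reached by 13.6% of that list. The difference in RNA at E11.5, 7.08-fold as deposited and smaller after rescaling, thus stood beside H3K4me3 peaks of like width in both kidney populations at later ages.

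Slit3 (chr11:35121456-35708507, plus strand) had H3K4me3 over its single annotated start in all 3 populations, but with unlike scores. The peak of 2590 bp in cap mesenchyme scored 2323, in the upper 21.8% of its list. That of 2154 bp in ureteric epithelium scored 100 (100.45), with 75.4% of its own list as high or higher, and that of 2926 bp in stem cells scored 126, with 65.5% of the list as high or higher. H3K27me3 was added in both of these. A ureteric peak of 1013 bp (score 111) ended 467 bp before the start, and a stem cell peak of 1752 bp (score 215) began 192 bp after it. In cap mesenchyme no H3K27me3 peak lay in the window. Slit3 RNA, read at an earlier age, was higher in mesenchyme. With any listed start counted, Robo1 and Robo2 had the same states. Robo1 was at 14.6 FPKM in mesenchyme and 18.8 FPKM in bud, and Robo2 was at 73.9 and 23.5 FPKM. Whether states and RNA are linked was not tested.

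Slit1 (chr19:41597824-41747275, minus strand) had no peak of either mark within 1 kb of its outermost start. The nearest H3K4me3 peaks were 2.99 kb inside it for cap mesenchyme (3836 bp, score 2744), 3.19 kb for ureteric epithelium (2803 bp, score 371) and 2.93 kb for stem cells (1724 bp, score 261). In stem cells a H3K27me3 peak of 1371 bp (score 246) lay among them, 3.87 kb inside the outermost start, while the nearest H3K27me3 peak was 48.2 kb away in cap mesenchyme and 83.9 kb away in ureteric epithelium. No other Slit1 start was listed in the reference used here, so the state "neither mark" is that of the outermost start only.

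Robo1 (chr16:72027518-73047491, plus strand) had marks at both of its starts. At the outermost start, the H3K4me3 peak measured 2629 bp in cap mesenchyme, 2311 bp in ureteric epithelium and, for stem cells, 2572 bp. A small H3K27me3 peak of 293 bp (score 34.6) covered it in ureteric epithelium, and one of 602 bp (score 93.5) lay 589 bp after it in stem cells. At the inner start, 636 kb into the gene, H3K4me3 peaks measured 3772, 4919 and 2913 bp, and no H3K27me3 peak was within 1 kb in any population. The ureteric peak there scored 3209, and 0.0292% of its list scored as high or higher.

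Robo2 (chr16:73891976-75447443, minus strand) is the longest gene of the family, at 1555 kb. Its outermost start and the listed start 150 bp inside it had neither mark in any population. The middle start, 355 kb inside, had H3K4me3 in cap mesenchyme (1304 bp, score 461) and ureteric epithelium (979 bp, score 264), with no mark in stem cells. It is also the window with the fewest CG dinucleotides of those shown above. The innermost start, 1036 kb inside, had H3K4me3 in all 3, with widths of 11080 bp in cap mesenchyme, 3975 bp in ureteric epithelium and, for stem cells, 2797 bp. Only 0.0818% of the cap mesenchyme list was as wide as that 11080 bp peak or wider. H3K27me3 was found near the innermost start as a peak of 255 bp (score 30.4) at 941 bp in the ureteric cells, and of 809 bp (score 90.6) at 907 bp in stem cells. No H3K27me3 peak was near it in cap mesenchyme.

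Robo3 (chr9:37416045-37433436, minus strand) had both marks at its starts in every population. In cap mesenchyme the H3K4me3 peak was 1835 bp (score 388), and H3K27me3 peaks of 1827 bp (score 991) and 584 bp (score 202.5) lay in the window. The larger ranked in the upper 0.592% of its list by score. In ureteric epithelium an H3K4me3 peak of 2164 bp had a low score of 61.2, and H3K27me3 peaks of 1576 bp (score 109) and 2454 bp (score 425) stood beside it. In stem cells the peaks measured 2666 bp and 1633 bp. The gene with the least RNA of the 6 was thus also the one with H3K27me3 at the start in all 3 populations. Robo4, the endothelial Robo gene that ends 2.02 kb from Robo3, was at 0.914 FPKM in mesenchyme and 0.127 FPKM in bud, with H3K4me3 in ureteric epithelium and neither mark at its starts in the other populations.

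**Figure D3:**
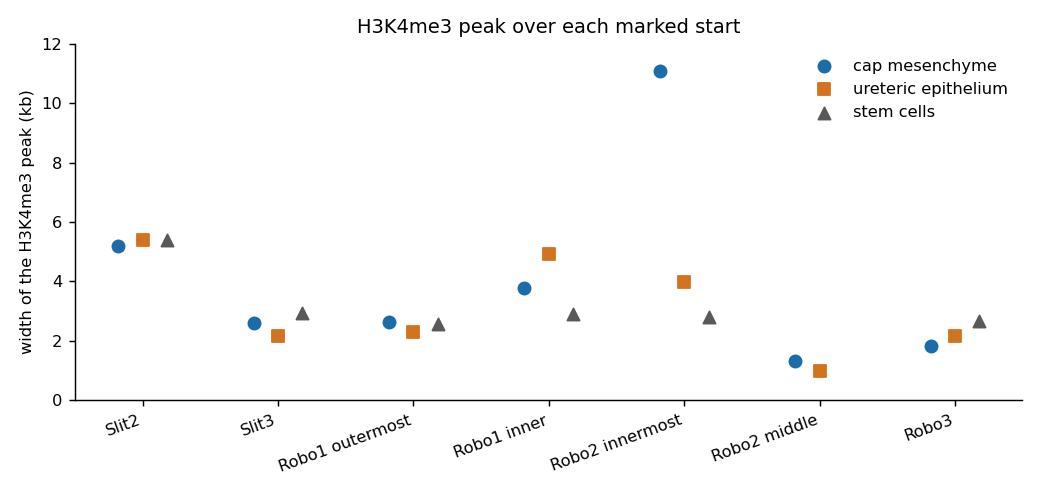
Width in kb of the H3K4me3 peak that covers each marked start (circles, cap mesenchyme, squares, ureteric epithelium, triangles, stem cells). The innermost Robo2 start in cap mesenchyme stands out at 11.1 kb, Slit2 lies between 5.19 and 5.41 kb in all 3, and the middle Robo2 start has no point for stem cells.

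Peaks were also found inside the gene bodies. Away from the starts, Robo1 had 9 H3K4me3 peaks for cap mesenchyme, 10 for ureteric epithelium and 16 for stem cells. Of these, 5 of the 9 in cap mesenchyme overlapped peaks of ureteric epithelium (6 of its 10), and none of either overlapped one of stem cells. Robo2 had 10, 3 and 10 such peaks. Of the 10 in cap mesenchyme, 2 overlapped ureteric peaks (2 of 3), and none of either overlapped one of stem cells. A Robo1 peak of cap mesenchyme ended at position 72687360, close to one of stem cells that began at 72687516. How often internal peaks of all genes overlap between populations was not counted, so these overlaps are a description only. H3K27me3 in these genes lay in narrow peaks in the kidney populations, with widths near those of the whole lists. Robo1 held 26 such peaks away from its starts for cap mesenchyme, 38 for ureteric epithelium and 0 for stem cells. Robo2 held 38, 52 and 2 in this order. The median width in Robo2 was 196.5 bp in cap mesenchyme and 286.5 bp in ureteric epithelium. All H3K27me3 peaks together covered 0.591% of the Robo1 body in cap mesenchyme and 1.12% in ureteric epithelium, and 0.565% and 1.11% of that of Robo2. Over the 2289 genes of at least 100 kb, the median cover was 0.315% and 0.834%, and for Robo1 33.2% and 38.8% of these genes had a higher cover. The stem cell list had 12879 H3K27me3 peaks, against 108394 and 144362 in the kidney lists, so the absence of such peaks in stem cells moves with the length of the list and its part was not tested.

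The Slit bodies were arranged otherwise. Slit2 had 4 H3K4me3 peaks away from its starts in cap mesenchyme and 0 in the other populations, and its H3K27me3 numbered 3, 0 and 2 there. Slit3 had 8, 2 and 21 internal H3K4me3 peaks, and 1, 13 and 10 internal H3K27me3 peaks. Of its 8 in cap mesenchyme, 5 overlapped peaks of stem cells (5 of 21), and the share over all genes was not counted. The widest peaks inside Slit3 were in stem cells, of 4071 bp and 4915 bp, centred 267 and 297 kb from the start. H3K4me3 covered 5.45% of the Slit3 body in stem cells, 1.496% in cap mesenchyme and 0.49996% in ureteric epithelium, beside medians of 3.04%, 1.60% and 1.19% over the long genes. Slit1 had 2, 1 and 8 internal H3K4me3 peaks, which include those near 3 kb (2.93 to 3.19 kb) described above. Robo1 and Robo2 lie 844 kb apart on chromosome 16 and point towards each other.

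**Figure D4:**
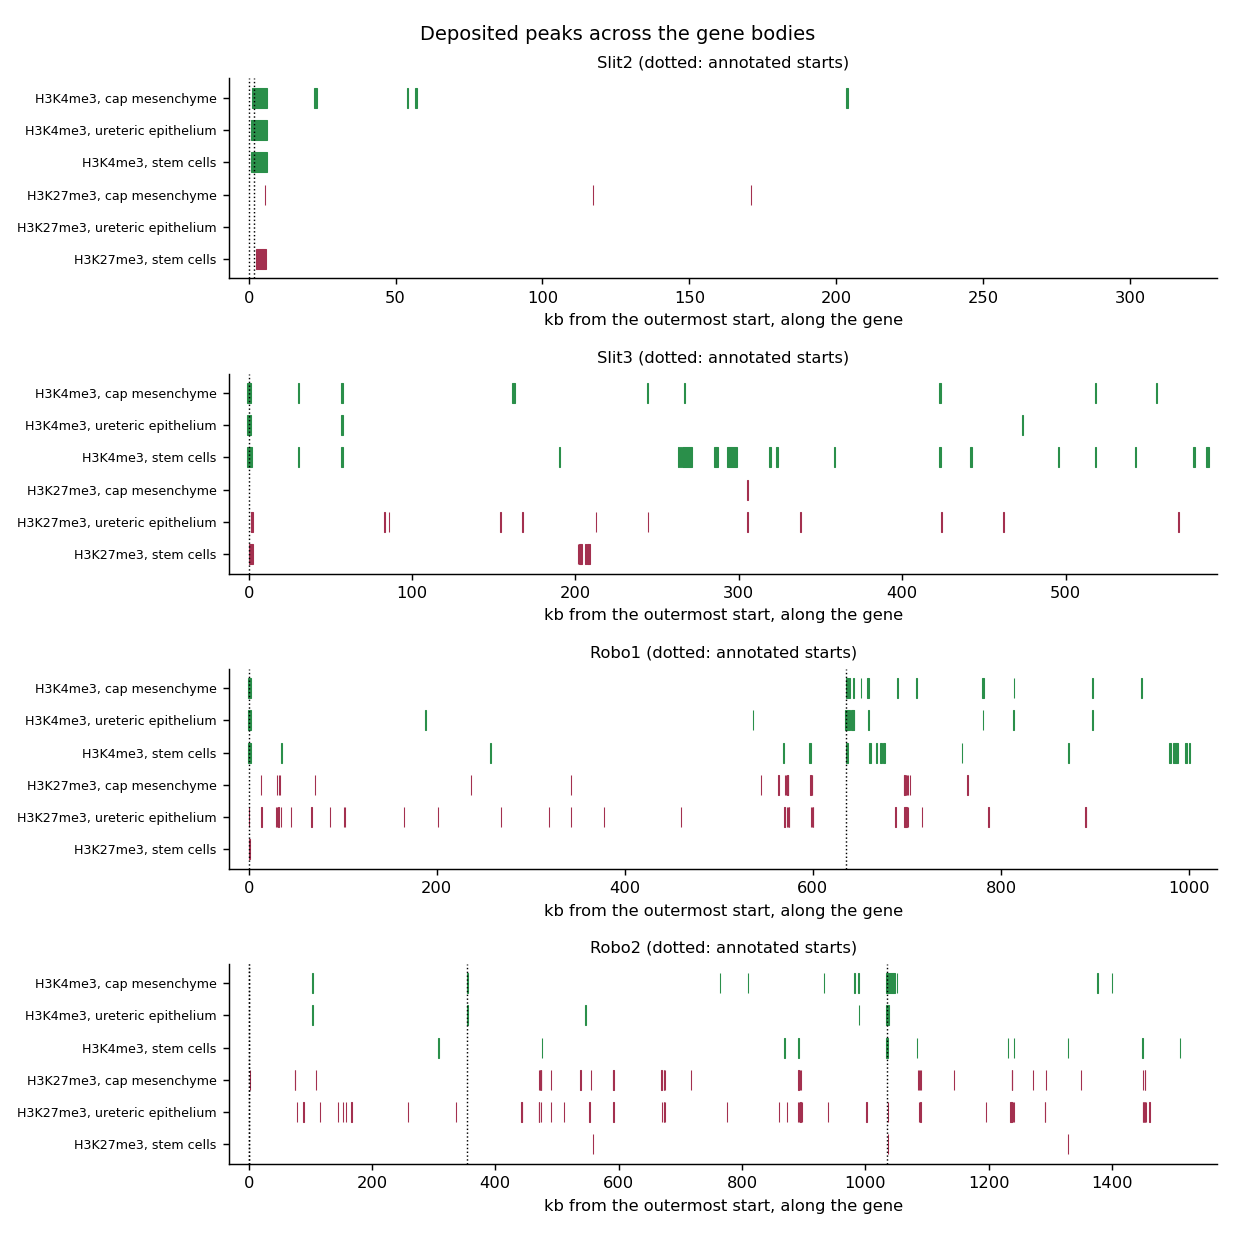
Deposited H3K4me3 (green) and H3K27me3 (red) peaks across Slit2, Slit3, Robo1 and Robo2, in kb from the outermost start along the gene, with annotated starts dotted. Narrow peaks are drawn with a minimum line width, and the many H3K27me3 lines in Robo1 and Robo2 in the kidney populations (26 and 38 in Robo1 away from the starts) face an empty row for stem cells in Robo1 apart from its outermost start.

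The other genes of the pathway were read from lists that hold 22 receptors, co-receptors and partners, 24 effectors inside the cell, and 15 kidney genes of the Gdnf and Ret field. Of all tested genes, 1.84% were 4-fold higher in mesenchyme and 4.15% in ureteric bud. Of the 20 tested genes in the first list, 0 were 4-fold higher in mesenchyme and 2 were higher in ureteric bud. The median difference of that list was -0.54 beside -0.47 over all tested genes. Dag1, which encodes dystroglycan, a binding partner of Slit, was at 7.90 FPKM in mesenchyme and 41.8 FPKM in bud. Hs6st1, a heparan sulfate sulfotransferase, was at 4.75 and 22.6 FPKM. Others with high levels were Ndfip1, an adaptor for receptor turnover (52.0 and 101 FPKM), Sdc4, a syndecan (10.9 and 35.4 FPKM), Gpc1, a glypican (15.3 and 20.7 FPKM), and Plxna1, a plexin that can bind Slit fragments (7.17 and 17.7 FPKM). Robo4 and Dcc were below 1 FPKM in both libraries. After rescaling, the differences of Dag1 and Hs6st1 were -1.72 and -1.51, no longer 4-fold, while that of Flrt3, a membrane protein that binds Robo1, went from 1.96 to 2.26 and so passed in mesenchyme (8.33 and 1.39 FPKM).

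Effectors were present in both tissues, and 24 of 24 were tested. None was 4-fold higher in mesenchyme (0 of 24), beside 1.84% of all tested genes. In bud 1 of 24 was higher, near the share of 4.15% of all tested genes, and the median was -0.52. The gene higher in bud was Pak1, a kinase activated by Rac and Cdc42, at 3.86 and 24.7 FPKM. Its difference was -2.40, and -1.87 after rescaling. Ctnnb1 (beta-catenin, 109 and 150.0 FPKM), Evl of the Ena/VASP family (61.5 and 92.6 FPKM), the GTPase Cdc42 (54.8 and 83.9 FPKM) and Pak2 (37.6 and 68.0 FPKM) had the highest levels. In each population, 23 effectors had H3K4me3 alone at a start, beside 60.2% of all genes for cap mesenchyme, 55.7% for ureteric epithelium and 58.2% for stem cells, and the remaining gene, Cables1, had no strand in the references and so no state.

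Genes of the Gdnf and Ret field were far more unequal than either list above. The lists were chosen with earlier results of these data known, and Six2, Eya1 and Ret are also tissue markers below. The contrast between the lists was thus partly set by the choice of genes and is a description only. Of 14 tested, 8 were 4-fold higher in mesenchyme, beside 1.84% of all tested genes, and 3 in ureteric bud, beside 4.15%. The median was 3.52. Gdnf, the growth factor that draws out the bud, was at 10.8 FPKM in mesenchyme and 0.0752 FPKM in bud. Its receptor Ret was at 0.341 and 72.8 FPKM, the co-receptor Gfra1 at 10.6 and 178 FPKM (178.01), and Spry1, a feedback inhibitor of Ret signalling, at 6.96 and 73.4 FPKM. Foxc1 and Foxc2, forkhead factors known to limit the Gdnf domain, were at 39.4 and 16.9 FPKM in mesenchyme and 0.0802 and 0.206 FPKM in bud. The mesenchymal regulators Eya1 (61.8 and 0.615 FPKM), Six2 (55.5 and 1.58 FPKM), Sall1 (26.5 and 0.276 FPKM), Hoxd11 (23.2 and 0.0718 FPKM) and Hoxa11 (11.52 and 0.0550 FPKM) went the same way. Pax2 (15.1 and 41.1 FPKM) did not reach 4-fold. Bmp4 (9.10 and 1.56 FPKM) fell just short on the log2(FPKM + 1) scale, at 1.98, and passed after rescaling, at 2.29. Grem1 had no matched row. At their starts, 12 of these 15 genes had H3K4me3 alone in cap mesenchyme and 3 had both marks, against 4 and 11 in ureteric epithelium, and for stem cells 3 and 12. Over all genes, H3K4me3 alone was found at 60.2%, 55.7% and 58.2% in these populations, and both marks at 6.86%, 7.54% and 12.2%. Slit3, Robo1 and Robo2 had that same sequence of states, H3K4me3 alone in cap mesenchyme and both marks elsewhere, as did Gdnf, Gfra1, Foxc1, Foxc2, Six2, Hoxa11 and Hoxd11. Of all 21085 genes, 437 (2.07%) had it, with any listed start counted. With the outermost start alone, Slit3 and Robo1 kept this sequence, and Robo2 had neither mark in any population. For Robo1 and Robo2 the ureteric state rested on H3K27me3 peaks with scores of 34.6 and 30.4. With a score of at least 50 required, only Slit3 and Robo3 of the family kept H3K27me3 in ureteric epithelium. With the upper 50% by score, Slit3 also lost H3K4me3 in ureteric epithelium and stem cells. The share of all genes was not recounted under these limits.

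**Figure D5:**
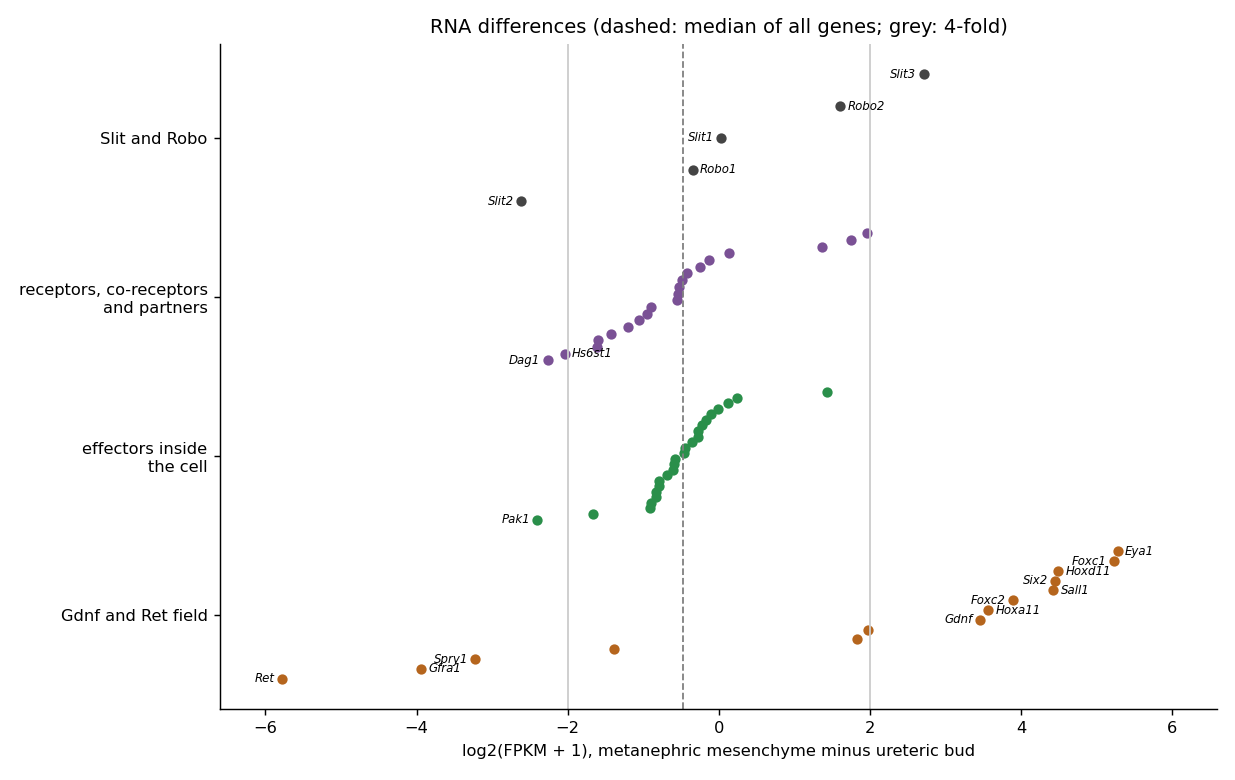
Difference in RNA on the log2(FPKM + 1) scale, metanephric mesenchyme minus ureteric bud, for the 5 tested Slit and Robo genes and the tested genes of 3 lists, 1 point per gene, with the median of all genes dashed and the 4-fold limits in grey. Slit2 at -2.62 and Slit3 at 2.71 lie outside the limits on opposite sides, most effectors lie near the dashed line at -0.47, and genes of the Gdnf and Ret field spread to both sides. Slit and Robo genes and genes past 4-fold are named.

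Genes most like each member were named by distance between RNA levels, on the log2(FPKM + 1) scale over the 2 libraries, among genes with the same states at the listed starts in all 3 populations. Robo3, below 1 FPKM, was left out. With 2 libraries this likeness is coarse, and the states of Slit3, Robo1 and Robo2 depend on the score limits given above. For Slit2, 923 genes had the same states, and the nearest were Sema3c, another secreted guidance ligand, at 5.68 and 37.8 FPKM (distance 0.06), Hoxd8 (0.14) and Id4 (0.19). For Slit3, among 433 genes, they were Hoxc4 at 12.1 and 1.26 FPKM (0.45), Dact1 (0.47) and Hoxc5 (0.49). Robo2 had no close neighbour among 433 genes. Its nearest was the chemokine gene Cxcl12, at 54.8 and 12.7 FPKM (0.94), followed by Ptprs (1.16) and Prkd3 (1.64). Robo1 was nearest to Mxi1, at 13.9 and 18.3 FPKM (0.08), then Hdgfl3 (0.25) and Ptpra (0.28). Slit1, with neither mark at its start like 4951 other genes, was nearest to Ankrd23 (0.13), Uchl4 (0.14) and Chml (0.15).

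Markers of the tissues moved with these differences and are given beside them. The 6 cap mesenchyme markers summed to 188 FPKM in mesenchyme and 10.7 FPKM in bud, although Cited1 itself was at 2.78 and 8.34 FPKM and so made up most of the bud sum, and the 8 ureteric markers to 15.0 and 2237 FPKM, with Cdh1 at 0.0188 FPKM and Wnt9b listed at 0 in mesenchyme. Markers of stroma, 4 genes, summed to 196 and 2.36 FPKM, and those of endothelium, 5 genes, to 29.1 and 3.09 FPKM. Those of neurons and neural crest, 6 genes, summed to 12.7 and 6.01 FPKM. Tubb3, at 2.22 and 5.05 FPKM, made up most of that bud sum, while all the others of its list were higher in mesenchyme. Blood markers summed to 1.44 and 0.174 FPKM, with 1 of 4 listed at 0 in mesenchyme and 3 of 4 in bud. Markers of mesonephric duct and nephron epithelium, 3 genes, summed to 4.48 and 47.0 FPKM, higher in bud as Slit2 was. The mesenchyme library thus held RNA of stroma and endothelium markers, and the bud library that of duct and nephron epithelium markers. The part of these lists in the Slit2, Slit3 and Robo2 values was not tested. In the marks, all 6 cap mesenchyme markers had H3K4me3 alone in cap mesenchyme, beside 60.2% of all genes. In stem cells, 4 of the 5 pluripotency markers had it alone, beside 58.2% of all genes. Of the 8 ureteric markers, 2 had H3K4me3 alone in ureteric epithelium, 5 had both marks, and Hoxb7, after which that reporter is named, had neither. Over all genes in that population, 55.7% had H3K4me3 alone, 7.54% both marks and 32.2% neither. Among the 5 endothelium markers, 4 (Pecam1, Cdh5, Tek and Emcn) carried only H3K4me3 in the ureteric cells. These 4 were unmarked in cap mesenchyme, like 31.3% of all genes, and Kdr carried both marks in both kidney populations. Only H3K4me3 was seen in the ureteric cells at 0 of 4 stroma, 1 of 6 neuron and neural crest and 1 of 4 blood markers. Whether other cell types add to the ureteric peak lists was not tested. For H3K4me3 the deposited lists numbered 32992 (cap mesenchyme), 23958 (ureteric epithelium) and 67022 peaks (stem cells).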

How the data were processed

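The 6 deposited peak lists and the 1 deposited RNA table were used as the authors left them. Bowtie2 and MACS (for the marks) and TopHat, Cufflinks with Cuffdiff (for RNA) are the tools, and mm10 the build, per the submitters' processing notes. Their versions and settings, the controls and how many libraries lie behind each file are not given in the sources used here. The score deposited with each peak has no stated meaning and was used for ranks and limits inside its own list. The deposited FPKM values and their intervals are the authors' own, per transcript, with 1 column per tissue, and the reads behind them are unknown. The 3 input libraries were not analysed here.

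Transcripts were paired with genes by accession (106342 of 138486) or, where an accession is no longer listed, by the authors' gene identifier (17906), and 14238 stayed unpaired. Transcripts without a reference held 93.6% of the listed FPKM in mesenchyme and 93.9% in bud. How they bear on the FPKM scale and on the shift between the libraries was not tested. The 6 genes and the lists were chosen with earlier results of these data known. FPKM was summed per gene, and differences used log2(FPKM + 1). A gene was tested at 1 FPKM or more in either library, and counted as different at 4-fold where the higher library had 2 FPKM or more. A start was marked where at least 1 bp of a peak lay within 1 kb, at the outermost annotated start (the rule set as the main one) or at any start that RefSeq tables list on GRCm38.p6. Strand came from those tables or, failing that, from how the RNA table orders its loci, with 0 of 24047 loci of known strand out of order. Strand for Slit1 came from that order, and Dcc, Ndfip1 and Cables1 had none. The text names all 6 genes, listed pathway genes that were 4-fold different with up to 4 others of highest FPKM per list, the 3 genes most like each member, and features inside or beside a member. The values of 1 listed pathway gene are not reported here. Robo4, Dcc, Cables1 and Flrt3, the marker genes and single transcripts were picked after their values were seen. The scripts (Python 3.11.15, pandas 2.3.3, numpy 2.4.6) were tested on simulated data. Alternatives covered the pseudocount, scaling, transcripts summed, window, overlap, score and starts.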

Additional observations from a re-analysis of the deposited data

How the results depend on the processing

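The differences of Slit2 and Slit3 kept their direction under every alternative that was run, and of 104 alternative values 86 stayed the same by the rule used (within 1.5 times for a count), 16 moved, 1 became stronger and 1 weaker. Some values counted as the same still changed in size. The Robo3 difference went from 0.04 to 2.06 with a pseudocount of 0.01 FPKM, and that of Slit1 from 0.03 to 0.37 after rescaling. Pathway genes higher in mesenchyme went from 8 to 12 with a pseudocount of 0.1 FPKM. Rescaling to equal medians gave a log2 difference of 0.18 for Robo1, which reversed its direction, and 2.14 for Robo2, so that 2 members in place of 1 were 4-fold higher in mesenchyme, and 3 pathway genes in place of 6 were higher in ureteric bud. Curated transcripts alone gave -0.28 for Slit1, -0.92 for Slit2, 0 for Robo2 and 0 for Robo3, and 0 members in place of 1 higher in bud. The most abundant transcript alone gave -0.28 for Slit1. Pairing by accession alone, chosen after seeing the data, also gave -0.28 for Slit1. Counting any listed start gave 5 members with H3K4me3 in cap mesenchyme (3 at the outermost start) and 5 with H3K27me3 in stem cells (3). The upper 50% by score left 2 members with H3K4me3 in ureteric epithelium (4) and 2 for stem cells (4), and equal list lengths left 1 in stem cells. Requiring 50% of the window left 1 member with H3K27me3 in ureteric epithelium (3) and 1 for stem cells (3). Body cover moved in 21 of 36 cases with the upper 50% by score and in 3 of 36, all H3K27me3 of Robo3, with 5 kb added to each side. The cause was not tested. No paired analysis was possible because each group has 1 sample, and for the same reason no replicate could be left out. Depth is unknown for all files, so values near 0 FPKM and missing peaks are limited by it.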
